A study of Mus musculus with 12 samples.

Results

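Bone marrow of unirradiated mice given DEIX was compared with that of untreated control mice across 21853 protein-coding genes, in 3 libraries against 3 of a series of 12. DEIX stands for deinoxanthin, a carotenoid pigment of bacteria named in the title of the series. RNA came from whole bone marrow cells of B6 mice, taken at day 14. The DEIX mice were given 25 mg/kg daily over 14 days and were not irradiated. The control mice were not irradiated, and no gavage or vehicle is stated for them, so an effect of dosing cannot be told apart from an effect of DEIX. Libraries of 2 other groups entered the model as well. The TBI mice received 5 Gy of total body gamma irradiation at 0.66 Gy/min and 100 µL of olive oil by gavage, and the TBI+DEIX mice received the same irradiation and DEIX at the same dose. No source says whether a library came from 1 mouse or several, and the p-values measure the spread between these libraries.

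Bone marrow makes blood cells of every lineage. B lymphocytes arise there through V(D)J recombination, in which the Rag1 and Rag2 recombinase joins antibody gene segments, and through a pre-B receptor that contains the Vpreb and Igll1 proteins. Resident macrophages engulf the nuclei shed by erythroblasts and recycle iron, under the transcription factor Spic. Type I interferon acts through Jak1, Tyk2, Stat2 and Irf9 on the promoters of antiviral genes, and a low tonic level of it is present without infection. Carotenoids are known as quenchers of reactive oxygen, are taken up through the scavenger receptor Scarb1, and in part are cleaved to retinoids.

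Values are FPKM, mapped fragments scaled to transcript length and to the mapped total of the library, and changes are differences of log2(FPKM + 1). Total reads per library are unknown. From the steps between low values, 1 read was worth 0.900 to 1.32 times its FPKM worth in control replicate 1 in the other control libraries, and 1.11 to 1.67 times in the DEIX libraries (a higher worth means a shallower library). The estimate for DEIX replicate 1, the shallowest, is weak, with a best fit only 1.05 times better than the next. In the 6 compared libraries 10471 to 10832 genes reached an FPKM of 1. Genes of granulocytes, erythroid cells and B cells were all expressed: Camp, a granule peptide of neutrophils, had 5422, 6803 and 9090.0 FPKM in the control libraries, Hba-a1, an alpha globin, 1879.5, 1792 and 3146 and Cd79a, a chain of the B cell receptor, 113, 90.5 and 122. The neutrophil genes S100a8, S100a9 and Ngp are all listed at 0 in control replicate 3 and TBI+DEIX replicate 2. Ngp is also at 0 in DEIX replicate 3 and TBI replicates 1 and 2, and S100a9 in TBI replicates 1 and 2. Their values above 0 are among the highest of each library, so no mean is given for them.

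DEIX replicate 2 stood apart from the other DEIX libraries in erythroid, plasma cell and stefin genes. Hbb-bs, a beta globin, was listed at 548, 3536 and 450.1 FPKM in DEIX replicates 1 to 3, against 1481, 1178 and 1728 in control. The median difference of 30 erythroid genes from the control mean was -1.004, 0.78 and -0.89 in the same libraries. Alas2, which starts heme synthesis in erythroid cells, was at 23.01, 113 and 24.6 FPKM, against 46.9, 40.5 and 55.3 in control. Jchain, the joining chain of secreted antibodies, was at 876, 169 and 873 FPKM, and Stfa2, a cysteine protease inhibitor of neutrophils, at 16.6, 64.5 and 16.04. Replicate 2 was thus high where the others were low for globins, low for Jchain and high for Stfa2. By limma 0 of the 30 erythroid, 8 plasma cell and 7 stefin genes tested were called (3, 1 and 1 at an unadjusted p under 0.05). Without that library 5 erythroid genes were called, with a list median of -0.95 in place of -0.38.

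Of 10994 genes tested, 796 (7.24%) differed between DEIX and control at an adjusted p under 0.05 in limma, 497 higher (4.52%) and 299 lower (2.72%). In all 796 the 3 DEIX libraries lay wholly above or below the 3 control libraries, which was so for 40.6% of all tested genes. Falls were larger than rises: 123 of the 299 fell by at least 1 on the log2 scale and 52 of the 497 rose by at least 1, with medians of -0.86 and 0.59. The genes that rose were also the more abundant, with a median control mean of 25.7 FPKM against 7.88 for those that fell. Control libraries were close to each other, with a within-group SD of 0.140 (root mean square over genes, log2 scale), against 0.236 in DEIX and 0.418 in TBI+DEIX. With only the 6 compared libraries in the fit, 2057 genes (18.7%) passed, 1202 higher (10.9%) and 855 lower (7.78%), among them all 796. The count fell to 186, 146 and 174 without control replicates 1 to 3 and to 165 and 218 without DEIX replicates 1 and 3, and was 938 without DEIX replicate 2. The background for each count of called list members is thus 4.52% higher and 2.72% lower. For counts from the fit on the 6 compared libraries it is 10.9% higher and 7.78% lower. Of the 796 genes, 126 were called in each of these 6 fits, 59 higher and 67 lower, and 0 of the 796 changed sign.

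The share of rises depended on the scale. Higher genes made up 62.4% of those called on FPKM, 56.0% with each library centred on its median, 48.0% on the TPM scale without S100a8, S100a9 and Ngp, and 19.1% of 282 genes on the TPM scale with them. The TPM scale shifted the median of all genes from 0.02 to -0.12. Each of the 497 rises and 299 falls kept its sign under these scalings.

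**Figure D1:**
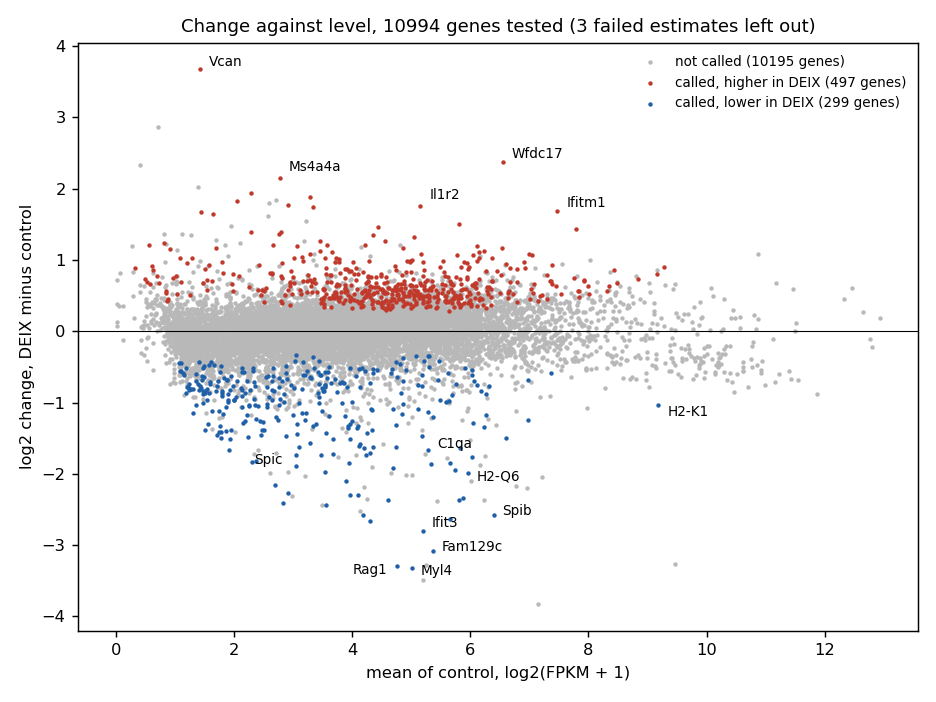
Change against level. The horizontal axis is the mean of the control libraries as log2(FPKM + 1) and the vertical axis the log2 change, DEIX minus control; each point is 1 of the genes tested, with S100a8, S100a9 and Ngp left out, red where called and higher (497 genes), blue where called and lower (299 genes) and grey where not called. Vcan lies highest at 3.67, and Myl4, Rag1 and Fam129c lie lowest among called genes, at -3.32, -3.29 and -3.09.

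B lineage genes were among the largest falls. Of 13 genes of V(D)J recombination and the pre-B receptor, all were lower in DEIX, with no overlap between groups in any (17.2% of all tested genes were lower without overlap), and the median change was -2.18, against 0.02 over all tested genes. Called were 4 of the 13 (2.72% of all genes were called lower), Rag1, Il7r, Sox4 and Bcl7a. With only the 6 compared libraries in the fit all 13 were called (7.78% of all genes were called lower in that fit). Their summed level was 535 to 632 FPKM in control and 72.2 to 111 in DEIX. Whole marrow was measured, so fewer cells of a type and less RNA per cell cannot be told apart, here and in each group below.

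Rag1 (ENSMUSG00000061311.6, chromosome 2, 101638282 to 101649501, minus strand) encodes the catalytic subunit of the recombinase. It was at 31.6, 22.6 and 24.1 FPKM in control replicates 1 to 3 and at 1.35, 1.698 and 2.28 in DEIX replicates 1 to 3, a log2 change of -3.29 (SE 0.84, adjusted p 0.0411). All 3 DEIX libraries were far below the lowest control library. Il7r, the receptor chain for interleukin 7 that early B cells need, went from 21.3, 17.7 and 15.5 to 4.36, 8.18 and 6.17 FPKM (-1.43, SE 0.39, adjusted p 0.0496). Sox4, a transcription factor of early B cells, went from 17.6, 17.04 and 21.8 to 4.405, 4.87 and 5.88 FPKM (-1.71, SE 0.42, adjusted p 0.0344). Bcl7a, a chromatin remodelling subunit, changed by -1.92. Rag2, the partner of Rag1, was at 7.86, 6.503 and 6.29 FPKM in control and 0.344, 0.497 and 0.962 in DEIX and missed the threshold (adjusted p 0.0564). So did Dntt, which adds bases at the joints, at 33.6, 30.8 and 29.4 and 4.33, 7.98 and 9.49 FPKM (adjusted p 0.191).

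The pre-B receptor genes Vpreb1, Igll1 and Vpreb3 also had large differences but did not pass in the fit over 12 libraries. Vpreb1 was at 31.96, 37.5 and 37.4 FPKM in control and 0.984, 3.11 and 3.26 in DEIX, with 4.69, 73.7 and 84.99 in TBI, a log2 change from control of -3.48 (SE 1.17, adjusted p 0.0944). Igll1 was at 37.5, 38.3 and 35.2 FPKM in control and 1.38, 3.85 and 4.12 in DEIX (-3.28, SE 1.06, adjusted p 0.0845). Vpreb3 had the lowest value of the list at -3.83 (SE 1.17, adjusted p 0.0709). The DEIX and control values of Vpreb1 and Igll1 were far apart, and those of Vpreb1 in TBI ranged widely. Of the 13 genes in the list, 9 were called without the TBI+DEIX group in the fit. Reads of Vpreb1 and Vpreb2, near-identical copies, could be split between them by the counting.

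Transcription factors of B cells followed the same direction in 11 of 12 members (median -1.31). Fallers that passed were 5, Spib, Bach2, Ikzf3, Foxo1 and Tcf3. Spib (ENSMUSG00000008193.13, chromosome 7, 44525993 to 44532071, minus strand), an Ets factor of B and plasmacytoid dendritic cells, went from 89.3, 72.9 and 87.4 FPKM to 11.2, 12.5 and 16.1 (-2.57, SE 0.56, adjusted p 0.0245). Bach2, a repressor that holds B cells from plasma cell fate, went from 16.3, 13.2 and 14.5 to 1.61, 2.398 and 2.59 FPKM (-2.299, SE 0.4004, adjusted p 0.009605). Ikzf3, which encodes Aiolos, changed by -1.36, Foxo1 by -1.15 and Tcf3, which encodes E2A, by -0.98. Pax5, the factor that commits cells to the B lineage, was at 19.4, 16.1 and 18.5 FPKM in control and 1.93, 3.25 and 3.12 in DEIX and missed the threshold (adjusted p 0.0554). Ebf1, which acts with Pax5, was at 15.8, 14.5 and 19.2 and 1.54, 1.89 and 2.77 FPKM (adjusted p 0.0589). Ikzf1, which most blood cells share, was the member above 0, with a change of 0.28 (adjusted p 0.143).

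Among 20 B cell surface and signalling genes, 17 were lower and 9 passed, all lower (median -1.16). Fam129c (ENSMUSG00000043243.15, chromosome 8, 71597648 to 71607936, plus strand), a gene of B cells, went from 40.8, 35.8 and 44.2 FPKM in control to 3.4003, 4.14 and 4.01 in DEIX (-3.09, SE 0.53, adjusted p 0.00915). Cd72, an inhibitory coreceptor, went from 48.8, 45.5 and 54.1 to 7.25, 6.18 and 7.97 FPKM (-2.64, SE 0.48, adjusted p 0.0121). Blk, a Src family kinase of B cells, went from 13.8, 12.4 and 15.6 to 1.77, 2.65 and 3.14 FPKM (-2.101, SE 0.304, adjusted p 0.00534). DEIX values of these 3 genes were close together and far below the lowest control value. Fcrla, Tnfrsf13c (the receptor for BAFF), Cd22 and Ralgps2 changed by -2.36, -1.51, -1.19 and -1.12. Among receptors of mature B cells, Fcmr, the Fc receptor for IgM, went from 19.8, 15.9 and 22.3 to 4.37, 9.23 and 7.28 FPKM (-1.39, SE 0.23, adjusted p 0.00758), and Fcer2a, which encodes CD23, changed by -0.83 (SE 0.199, adjusted p 0.0333). Ms4a1, which encodes CD20, was at 25.2, 18.02 and 22.6 FPKM in control and 5.14, 6.28 and 8.78 in DEIX (adjusted p 0.0556). Btk, Cd37 and Cd24a, which other marrow cells express as well, had changes of 0.01, 0.01 and 0.03.

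Other genes with large falls were Myl4, Cecr2, Akap12, Uchl1, Pafah1b3, Chst3 and Cpm, named by size or by p. Myl4 (ENSMUSG00000061086.12, chromosome 11, 104550663 to 104595753, plus strand), a myosin light chain, went from 28.9, 31.5 and 33.7 FPKM in control to 2.203, 1.65 and 2.98 in DEIX (-3.32, SE 0.36, adjusted p 0.00176). Cpm, a membrane carboxypeptidase, went from 7.61, 5.97 and 6.15 to 0.506, 0.441 and 0.7897 FPKM (-2.26, SE 0.24, adjusted p 0.00176). Ccr7, the chemokine receptor that guides lymphocytes and dendritic cells to lymph nodes, went from 6.72, 5.37 and 7.07 to 1.29, 1.88 and 1.82 FPKM (-1.47, adjusted p 0.002897). Pafah1b3, a subunit of platelet-activating factor acetylhydrolase, changed by -2.34. Cecr2, Akap12, Uchl1 and Chst3 changed by -2.57, -2.44, -2.41 and -2.29. Each of them lost its call under some alternative settings (highest limma adjusted p 0.056, 0.138, 0.078 and 0.166).

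Leaving out any 1 control library, DEIX replicate 1 or DEIX replicate 3 left 0 of the V(D)J and pre-B genes called, and leaving out DEIX replicate 2 left 2. For the transcription factors those fits called 0 to 4 genes and for the surface genes 3 to 7, and Blk, Fam129c and Fcmr passed in each. With a pseudocount of 0.1 the calls were 1 of the V(D)J and pre-B genes, 3 transcription factors and 3 surface genes, and without the low-value filter 1, 4 and 5. The list medians moved little, from -2.29 to -2.06, -1.44 to -1.199 and -1.29 to -0.99 over these 6 fits.

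Of 8 plasma cell genes 5 were higher and 3 lower in DEIX, from -1.36 to 1.28. Jchain was higher in DEIX replicates 1 and 3 than in any control library and lower in replicate 2, where control had 332, 276 and 175 FPKM. Derl3, of the endoplasmic reticulum, had the same order, at 15.95, 1.56 and 10.3 FPKM against 2.71, 2.07 and 2.002 in control. Xbp1, the plasma cell transcription factor, was at 186, 96.1 and 143 FPKM in DEIX against 85.997, 78.9 and 86.8, with all DEIX libraries above control. Slamf7, a surface receptor of plasma and NK cells, was lower in all DEIX libraries, at 5.84, 2.13 and 6.86 FPKM against 15.5, 13.03 and 11.2 (adjusted p 0.301), and Mzb1, an antibody-folding chaperone, was at 47.6, 7.05 and 31.6 FPKM against 39.05, 38.4 and 40.3. The median of the 8 genes was 0.61 with 0 called. With only the 6 compared libraries in the fit 1 was called, lower, and 1 was called, higher, without DEIX replicate 2.

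All 20 T and NK cell genes tested were lower in DEIX, by a median of -0.48, and 2 were called (10%, against 7.24% of all genes). Gzma, a granule protease of cytotoxic cells, went from 16.5, 23.1 and 14.03 FPKM to 2.59, 6.73 and 5.25 (-1.73, SE 0.302, adjusted p 0.00967). Cd2, an adhesion receptor that B cells of the mouse carry too, went from 14.1, 13.8 and 15.97 to 5.44, 5.19 and 5.42 FPKM (-1.296, SE 0.28, adjusted p 0.0228). Without 1 library 0 to 2 members were called, with Cd2 called only without DEIX replicate 2 and Gzma in each of the 6 fits except the one without control replicate 2. Cd4 was at 4.04, 4.01 and 3.67 FPKM in control and 1.67, 1.898 and 1.76 in DEIX (adjusted p 0.0524).

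Among 13 dendritic cell genes 12 were lower (median -0.68) and Tcf4, the factor that directs plasmacytoid dendritic cells, passed at -0.54 (adjusted p 0.0485), 1 of 13 or 7.69%, against 7.24% of all genes. Tcf4 lost its call in each of the 6 fits without 1 compared library. Siglech, a surface marker of those cells, was at 28.1, 26.5 and 25.3 FPKM in control and 13.8, 18.4 and 16.8 in DEIX (adjusted p 0.115). Ly6d, which early B cells also express, had 146, 126 and 171 and 31.2, 33.8 and 39.9 FPKM (adjusted p 0.0605).

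**Figure D2:**
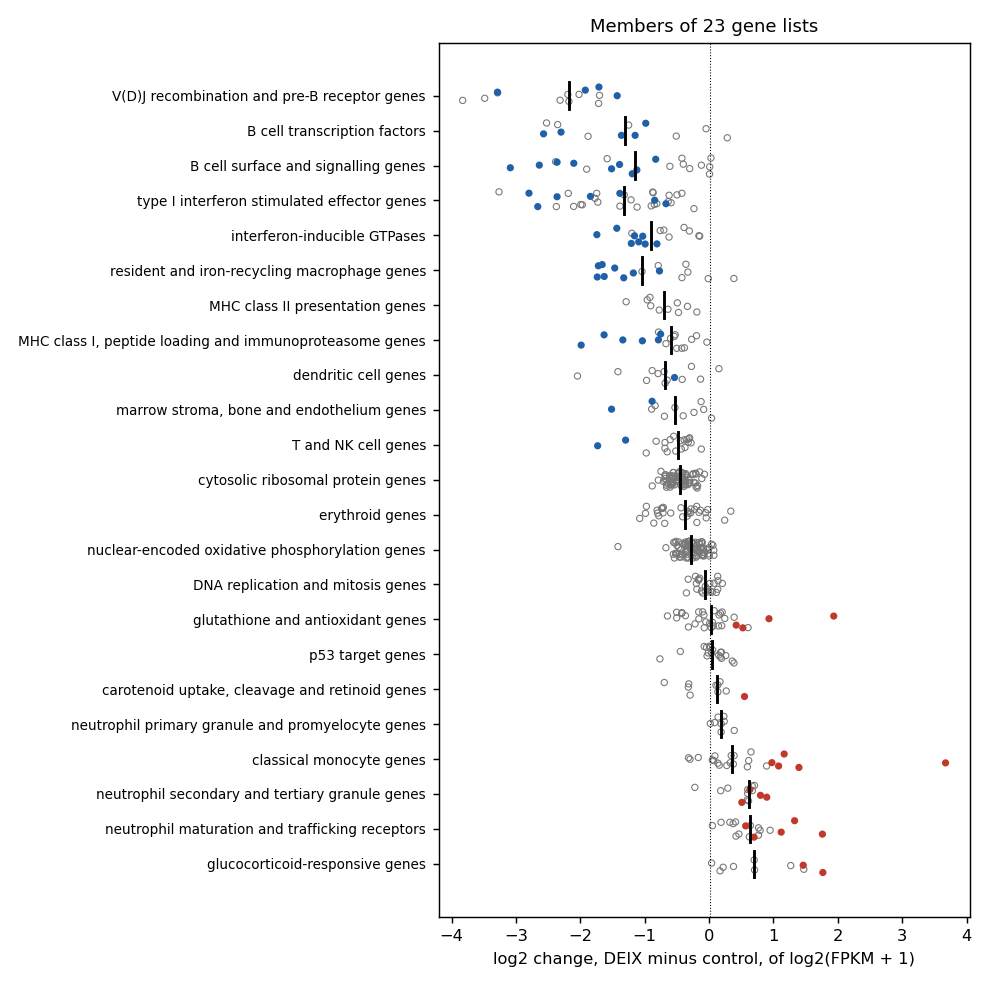
Members of 23 gene lists. The horizontal axis is the log2 change, DEIX minus control; each circle is 1 gene, filled where called (blue lower, red higher), the black bar is the median of the tested members and the dotted line the median of all tested genes, with S100a8, S100a9 and Ngp not drawn. The V(D)J and pre-B receptor list lies lowest, at a median of -2.18, and the neutrophil trafficking and glucocorticoid lists highest, at 0.63 and 0.704.

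Genes of resident macrophages fell in part. Of 15 tested, 14 were lower in DEIX (median -1.04) and 8 passed, all lower: the complement genes C1qa, C1qb and C1qc, and Spic, Cd5l, Axl, Siglec1 and Mertk. The summed level of the whole list, with its members that were not called, was 313 to 381 FPKM in control and 211 to 263 in DEIX. C1qa (ENSMUSG00000036887.5, chromosome 4, 136895917 to 136898803, minus strand), a chain of the first complement component made by macrophages, went from 38.2, 40.4 and 36.1 FPKM to 12.5, 9.23 and 12.8 (-1.66, SE 0.23, adjusted p 0.00447). C1qb and C1qc, its neighbours in the genome and partners in the protein, changed by -1.46 and -1.63. Spic (ENSMUSG00000004359.16, chromosome 10, 88674772 to 88685015, minus strand), the factor of iron-recycling macrophages, went from 7.78, 8.23 and 5.72 to 0.776, 1.76 and 2.01 FPKM (-1.74, SE 0.28, adjusted p 0.00753). Cd5l, a secreted protein of macrophages, went from 15.9, 11.5 and 7.86 to 2.36, 3.17 and 2.75 FPKM (-1.72, SE 0.21, adjusted p 0.00309). No DEIX value of these 3 genes reached the lowest control value, and Cd5l was the one with most spread within control.

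Axl, a receptor for apoptotic cells, went from 16.2, 14.7 and 11.7 to 3.92, 4.14 and 7.57 FPKM (-1.32, SE 0.301, adjusted p 0.0288), and Mertk, a related receptor, and Siglec1, a sialic acid receptor, changed by -0.77 and -1.18. Slc40a1, the iron exporter ferroportin, had 98.6, 96.9 and 85.8 FPKM in control and 82.95, 84.4 and 114 in DEIX, with a change of -0.01 (SE 0.27, adjusted p 0.984). Hmox1, which breaks down heme, had a change of -0.42 (adjusted p 0.2005), and Vcam1, the adhesion molecule of erythroblastic island macrophages and stroma, -0.79 (adjusted p 0.07003). Adgre1, which encodes F4/80 and which monocytes also express, was the member above 0, at 0.39 (adjusted p 0.576). With 1 control or DEIX library left out, 5 to 7 members were called, and C1qa, C1qb, C1qc, Spic and Cd5l passed in each such fit.

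Targets of type I interferon were lower in DEIX. All 31 tested effector genes were lower, with no overlap between groups in any (17.2% of all genes were lower without overlap), and the median change was -1.32. Called were 7 (Ifit3, Ifit3b, Usp18, Oasl1, Ifi44, Phf11d and Ifih1). With only the 6 compared libraries in the fit 28 were called (7.78% of all genes were called lower in that fit). The summed level of the list was 1639 to 1951 FPKM in control and 455 to 693 in DEIX. With 1 control or DEIX library left out, 1 member was called, and this was Ifi44 in each fit. On the TPM scale 18 members were called, but 6 on that scale without S100a8, S100a9 and Ngp and 6 with centring. Without the low-value filter or with a pseudocount of 0.1 the number was 3.

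Ifit3 (ENSMUSG00000074896.3, chromosome 19, 34583531 to 34588731, plus strand), which encodes an antiviral RNA-sensing complex protein, went from 29.8, 39.8 and 37.6 FPKM to 3.53, 3.11 and 6.78 (-2.796, SE 0.76, adjusted p 0.0499). Its copy Ifit3b changed by -2.66, and reads of both could be split between them by the counting. Usp18, which removes the ubiquitin-like Isg15 and dampens interferon signalling, went from 19.98, 25.2 and 24.8 to 3.69, 2.22 and 5.91 FPKM (-2.36, SE 0.58, adjusted p 0.0354). Ifi44 went from 3.14, 3.35 and 2.17 to 0.455, 0.297 and 0.697 FPKM (-1.39, SE 0.19, adjusted p 0.00447). DEIX replicate 2 was lowest of the 3 DEIX libraries for all 3 genes and replicate 3 highest. Ifi27l2a, the most abundant member in control, had 626, 766 and 735 FPKM in control and 74.5, 55.1 and 93.6 in DEIX and missed the threshold (adjusted p 0.131), as did Isg15 with 49.6, 65.4 and 75.1 and 12.6, 13.3 and 15.5 FPKM (adjusted p 0.124).

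Interferon-inducible GTPases, which attack the vacuoles of intracellular microbes, were lower in 16 of 16 (median -0.901), and 8 passed: Tgtp2, Gbp9, Irgm1, Gbp6, Igtp, Gbp4, Ifi47 and Tgtp1. Tgtp2 (ENSMUSG00000078921.3, chromosome 11, 49057194 to 49064206, minus strand) went from 9.98, 12.6 and 7.78 FPKM to 1.84, 2.33 and 2.72 (-1.74, SE 0.24, adjusted p 0.00447), and its near-identical copy Tgtp1 changed by -0.81. Irgm1 went from 38.6, 43.5 and 38.5 to 15.6, 15.6 and 19.5 FPKM (-1.21, SE 0.27, adjusted p 0.0267). Igtp went from 23.3, 27.9 and 23.7 to 11.7, 9.46 and 12.4 FPKM (-1.09, SE 0.27, adjusted p 0.0344). DEIX values of these 3 genes lay within a narrow band, well under control. With 1 library left out 1 to 5 members were called, Tgtp2 in each, and 5 without the low-value filter or with a pseudocount of 0.1.

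Promoters of 4 called genes that hold an interferon motif are shown. Some of the other members hold it as well and some do not. The searched motif was the core of the interferon-stimulated response element, the letters GAAA, any 2 bases and GAAA, on both strands, in the 250 bases before and 50 after each RefSeq start site on GRCm38.p6. It was in 1079 of 27025 promoters by symbol (3.99%). Of the 22 effector genes with a promoter in that table, 13 held it (59.1%), and of the 10 GTPase genes 9 (90.0%). The longer form with CT after the second GAAA, which contains the shorter, was in 82 of all promoters (0.303%), in 8 of the 22 and in 5 of the 10. Among called genes the short form was in 3 of 6 effectors (Ifit3, Ifit3b and Ifih1), in 4 of 5 GTPases (Irgm1, Igtp, Tgtp1 and Tgtp2) and in 0 of 5 genes of class I presentation. A match is a description of the letters and no measured binding site. The effector and GTPase lists hold known interferon targets, so their high shares follow from that choice and were no test of DEIX. Capitals mark the matches, printed 5′ to 3′ on the strand of the gene, where TTTC, any 2 bases and TTTC is the motif on the opposite strand.
Ifit3: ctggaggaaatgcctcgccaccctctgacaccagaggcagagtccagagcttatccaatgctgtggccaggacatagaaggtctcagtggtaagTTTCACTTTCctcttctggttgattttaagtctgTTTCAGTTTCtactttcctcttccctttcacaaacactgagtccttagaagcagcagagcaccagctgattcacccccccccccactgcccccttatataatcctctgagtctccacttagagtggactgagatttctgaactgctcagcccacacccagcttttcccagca
Irgm1: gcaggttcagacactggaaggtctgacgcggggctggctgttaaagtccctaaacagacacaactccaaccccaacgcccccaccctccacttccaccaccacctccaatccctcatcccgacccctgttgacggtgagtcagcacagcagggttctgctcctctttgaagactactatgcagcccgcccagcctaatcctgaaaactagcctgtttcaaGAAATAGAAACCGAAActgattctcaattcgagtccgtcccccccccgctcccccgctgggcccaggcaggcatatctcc
Igtp: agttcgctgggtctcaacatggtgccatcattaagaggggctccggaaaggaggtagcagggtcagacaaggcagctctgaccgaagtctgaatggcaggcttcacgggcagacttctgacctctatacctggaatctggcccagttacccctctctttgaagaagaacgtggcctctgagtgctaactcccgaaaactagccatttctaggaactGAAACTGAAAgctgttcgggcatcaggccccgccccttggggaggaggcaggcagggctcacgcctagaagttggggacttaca
Tgtp2: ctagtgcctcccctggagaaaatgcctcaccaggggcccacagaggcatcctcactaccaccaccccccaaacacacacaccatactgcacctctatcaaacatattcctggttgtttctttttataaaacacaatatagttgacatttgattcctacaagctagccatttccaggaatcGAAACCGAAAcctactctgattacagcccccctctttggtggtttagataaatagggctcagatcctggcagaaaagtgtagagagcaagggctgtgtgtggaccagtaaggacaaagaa
These windows lie at chr19:34583279-34583578 on the plus strand for Ifit3, chr11:48871371-48871670 on the minus strand for Irgm1, chr11:58199306-58199605 on the plus strand for Igtp and chr11:49064163-49064462 on the minus strand for Tgtp2. In Irgm1 the last match ends 14 bases before the start site, in Igtp 24, in Tgtp2 60 and in Ifit3 112. Ifit3 and Irgm1 hold 2 matches each, overlapping in Irgm1, and the other printed promoters 1.

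The genes that carry the interferon signal were higher in 5 of 10 and lower in 5. Ifnar1, a receptor chain, had 25.2, 23.2 and 22.3 FPKM in control and 23.3, 26.7 and 29.1 in DEIX, a change of 0.15 (adjusted p 0.438). Jak1, the receptor kinase, rose from 77.8, 73.1 and 70.3 to 89.3, 94.4 and 104 FPKM (0.37, SE 0.098, adjusted p 0.0457). Socs1, an inhibitor of Jak kinases that interferon induces, fell from 3.296, 3.49 and 4.76 to 2.05, 1.699 and 1.42 FPKM (-0.83, SE 0.14, adjusted p 0.00819). Irf7 and Irf9, which are themselves interferon targets, had changes of -1.53 and -0.82 (adjusted p 0.125 and 0.229). Of the 10 genes in this list, Jak1 and Socs1 were the called ones. Jak1 lost its call on both TPM scales, with centring and in each of the 6 fits without 1 compared library.

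Class I antigen presentation, whose genes respond to interferon, was lower in 17 of 17 tested genes (median -0.598), with 6 called, all lower: H2-Q6, H2-Q7, H2-Q4, H2-K1, Nlrc5 and Tap1. H2-Q6 (ENSMUSG00000073409.12, chromosome 17, 35424850 to 35430055, plus strand), a non-classical class I molecule, went from 53.7, 75.2 and 54.6 FPKM to 13.5, 16.4 and 13.7 (-1.99, SE 0.24, adjusted p 0.00286). H2-K1, a classical class I heavy chain, went from 499, 633 and 613 to 286, 282 and 278 FPKM (-1.04, SE 0.26, adjusted p 0.03801). Nlrc5, the transactivator of class I genes, and Tap1, the peptide transporter, changed by -0.79 and -0.75. The DEIX libraries were tight in both heavy chains, and H2-Q genes are near-identical copies whose reads the counting could split. H2-Q4 and H2-Q6 passed in each fit that left out 1 library, and those fits called 2 members. Without the low-value filter 3 were called. B2m, the light chain, had 2303, 2835 and 2059 FPKM in control and 1777, 1443 and 1509 in DEIX (adjusted p 0.489).

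Class II presentation was lower in 10 of 10 genes, by a median of -0.71. In limma over 12 libraries 0 passed (2 had an unadjusted p under 0.05). With the 6 compared libraries 6 passed (7.78% of all genes were called lower in that fit). Cd74, the invariant chain, had 406, 394 and 475 FPKM in control and 243, 243 and 339.8 in DEIX (adjusted p 0.493).

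Monocyte genes rose in part. Of 22 classical monocyte genes, 19 were higher (median 0.36) and 5 passed, all higher: Vcan, Cd14, Fn1, Tgfbi and F13a1. Vcan (ENSMUSG00000021614.16, chromosome 13, 89655312 to 89742509, minus strand), the matrix proteoglycan versican, had the largest rise of all named genes, from 1.84, 2.08 and 1.13 FPKM in control to 46.004, 32.8 and 23.4 in DEIX (3.67, SE 0.43, adjusted p 0.00278). Its mean went from 1.69 ± 0.496 to 34.1 ± 11.4 FPKM (mean ± SD, n = 3 in each group). Cd14, the coreceptor for bacterial endotoxin, went from 3.67, 3.64 and 4.35 to 13.8, 11.9 and 10.05 FPKM (1.396, SE 0.22, adjusted p 0.00719). Fn1, which encodes fibronectin, went from 106, 88.8 and 80.97 to 160.1, 253 and 217 FPKM (1.17, SE 0.202, adjusted p 0.00941). Tgfbi, a matrix protein, went from 122, 126 and 133 to 298, 263 and 251 FPKM (1.08, adjusted p 0.0108), and F13a1, a coagulation factor chain, changed by 0.98. All DEIX values of these 5 lay above all control values, by the widest margin for Vcan.

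The other members of the monocyte list did not pass. Ly6c2, the surface mark of inflammatory monocytes, had 1480.2, 1551 and 1529 FPKM in control and 1836, 1380.2 and 1539 in DEIX, a change of 0.05 (SE 0.42, adjusted p 0.957). Lyz2, the lysozyme of myeloid cells, had a change of 0.28 (adjusted p 0.868). Ccr2, the receptor with which monocytes leave the marrow, had 149.9, 133 and 124 and 272, 229 and 256 FPKM and a change of 0.89 (adjusted p 0.139). Csf1r, the receptor for macrophage colony-stimulating factor, had a change of 0.65 (adjusted p 0.294). Without 1 control or DEIX library, 2 to 5 monocyte genes were called, with Vcan and Cd14 in each.

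The MS4A family, multi-pass membrane proteins encoded in a cluster on chromosome 19, split by member. Ms4a4a, Ms4a6d and Ms4a8a rose, 3 of 11 tested. Without DEIX replicate 2, 3 members were called, and without any other compared library 2, Ms4a4a and Ms4a8a. On the TPM scale 3 members were called higher and 2 lower. Ms4a4a (ENSMUSG00000101389.1, chromosome 19, 11375523 to 11392790, plus strand) went from 5.56, 5.77 and 6.33 FPKM to 37.7, 38.3 and 17.8 (2.15, SE 0.33, adjusted p 0.00719). Ms4a6d went from 9.42, 8.77 and 8.08 to 58.5, 26.3 and 27.4 FPKM (1.88, SE 0.41, adjusted p 0.0245), and Ms4a8a from 5.76, 5.88 and 6.28 to 18.6, 17.5 and 16.01 FPKM (1.39, SE 0.18, adjusted p 0.003898). Ms4a8a was even across the DEIX libraries, Ms4a4a was lowest in replicate 3 and Ms4a6d highest in replicate 1. Their relatives Ms4a4c and Ms4a6b had changes of 0.07 and 0.39 (adjusted p 0.97001 and 0.719), and Ms4a7, a macrophage member, -0.71 (adjusted p 0.06703). Members are similar in sequence, so the counting could share reads between them.

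**Figure D3:**
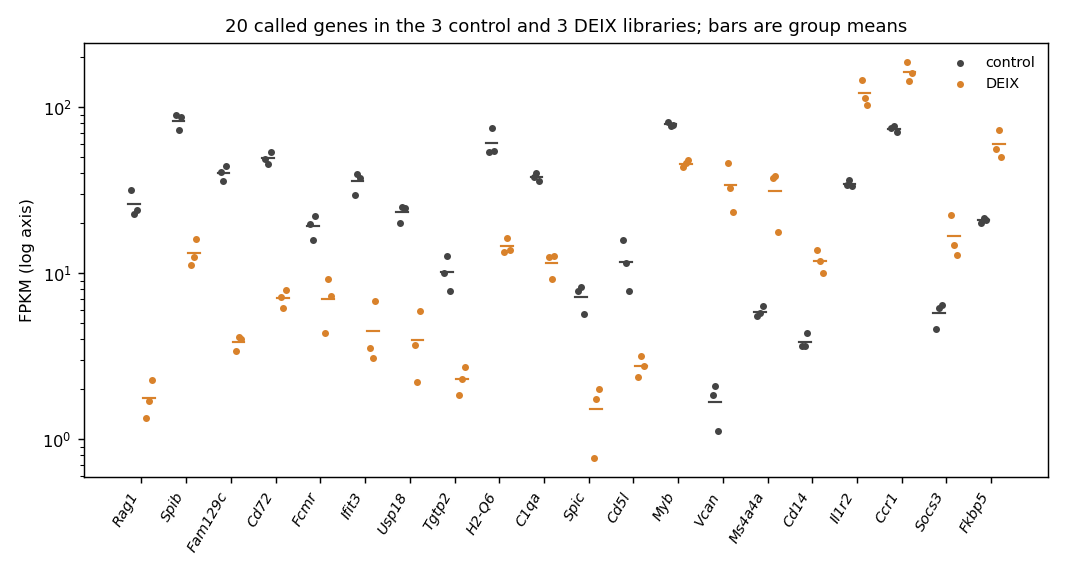
Values of 20 called genes by library. The vertical axis is FPKM on a log scale; dark points are the 3 control libraries, orange points the 3 DEIX libraries and the short bars their means. Control and DEIX points do not overlap in any of the 20 genes, with the widest gaps in Rag1, Fam129c and Vcan.

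Some neutrophil genes of the later stages rose. Of 8 genes of primary granules and promyelocytes, all were higher by a median of 0.19 and 0 passed in limma (0 at an unadjusted p under 0.05): Mpo, the myeloperoxidase, had 1258, 1465 and 1554 FPKM in control and 1947, 1342 and 1619 in DEIX (adjusted p 0.7698), and Elane a change of 0.02 (adjusted p 0.975). Among 17 genes of secondary and tertiary granules the median was 0.61, the same without the 3 failed estimates, and 4 rose: Hp, Cd177, Ltb4r1 and Itgb2l. Hp, which encodes haptoglobin, went from 552, 596 and 722 FPKM to 1497, 968 and 1061 (0.896, SE 0.23, adjusted p 0.03797). Cd177, a surface protein of neutrophils, went from 536, 547 and 630.2 to 1249, 730.2 and 1069 FPKM (0.799, SE 0.21, adjusted p 0.0448). Both were highest in DEIX replicate 1 and lowest of the 3 in replicate 2. Ltf and Lcn2, abundant secondary granule genes, had changes of 0.595 and 0.61 (adjusted p 0.313 and 0.358).

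Receptors of maturing neutrophils were higher in 18 of 18 tested genes (median 0.63), and 5 passed: Il1r2, Clec4e, Ccr1, Itgam and Itgb2. Il1r2 (ENSMUSG00000026073.13, chromosome 1, 40074079 to 40125231, plus strand), the decoy receptor for interleukin 1, went from 33.9, 36.6 and 33.6 FPKM to 146, 114 and 103 (1.76, SE 0.35, adjusted p 0.0168). Ccr1, a chemokine receptor, went from 74.9, 77.1 and 70.9 to 186, 144 and 160.2 FPKM (1.12, SE 0.18, adjusted p 0.00721). Clec4e, the receptor Mincle for microbial glycolipids, went from 34.97, 31.3 and 30.3 to 93.9, 69.7 and 84.9 FPKM (1.33, SE 0.29, adjusted p 0.0242). Itgam and Itgb2, the chains of the CD11b/CD18 integrin, changed by 0.699 and 0.57. Cxcr2, which draws neutrophils out of the marrow, had 193, 188 and 177 FPKM in control and 398, 278 and 419.7 in DEIX (adjusted p 0.0597), and Cxcr4, which holds them there, a change of 0.05 (adjusted p 0.934). Without any 1 library other than DEIX replicate 2, 0 granule genes of the later stage and 1 or 2 receptors were called. On the TPM scale 0 of the granule genes and 3 of the receptors passed, with medians of 0.46 and 0.497. On that scale without S100a8, S100a9 and Ngp 4 and 9 passed, and without the low-value filter 1 and 4.

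Further genes with large rises were Wfdc17, Sema6b, Il13ra1, Ifitm1, Dpep2, Asprv1 and Lrg1. Wfdc17, a small secreted protein of activated myeloid cells, went from 92.3, 99.6 and 87.04 FPKM to 621, 395 and 466 (2.37, SE 0.62, adjusted p 0.0447). Il13ra1, a receptor chain for interleukin 13, went from 9.91, 9.23 and 8.302 to 35.4, 31.5 and 32.2 FPKM (1.75, SE 0.25, adjusted p 0.00476). Ifitm1, an interferon-induced membrane protein that neutrophils express, went from 164, 184 and 184 to 667, 496 and 568 FPKM (1.69, SE 0.43, adjusted p 0.0392), opposite in direction to the interferon targets above. Lrg1, a glycoprotein of neutrophil granules, changed by 1.43, and Sema6b, Dpep2 and Asprv1 by 1.82, 1.68 and 1.504. Of these large rises, only Il13ra1 kept its call under every alternative setting. For the others the highest limma adjusted p ran from 0.058 (Asprv1) to 0.160 (Wfdc17). Of genes with the smallest p, Fbxl5, an iron-sensing ubiquitin ligase subunit, went from 67.8, 69.7 and 71.3 to 165, 137 and 154 FPKM (1.11, SE 0.13, adjusted p 0.00231). Klhl2, Cpd and Siglece, an inhibitory receptor of myeloid cells, changed by 1.03, 0.84 and 0.899.

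Of 11 genes of inflammatory cytokines and NF-kappaB feedback, 5 were higher and 6 lower, and Socs3 and Nfkbiz were called. Socs3, which granulocyte colony-stimulating factor and interleukin 6 induce, rose from 4.65, 6.16 and 6.49 FPKM to 22.3, 14.8 and 12.9 (1.36, SE 0.22, adjusted p 0.00753). Nfkbiz, which encodes a nuclear protein of the IkappaB family, had a change of 0.39 (adjusted p 0.0481). The Nfkbiz call was lost in each of the 6 fits without 1 compared library and on both TPM scales. It was also lost with centring, with a pseudocount of 0.1, without the filter and without the trend. Egr3, an early response factor, fell by 0.74 on the log2 scale (adjusted p 0.0324), as 1 of 10 early response genes (10%, against 7.24% of all genes). This call was lost on both TPM scales, with a pseudocount of 0.1 and without any 1 library other than DEIX replicate 2.

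Glucocorticoid-responsive genes were higher in 10 of 10 (median 0.704), with Fkbp5 and Per1 called. Fkbp5, a cochaperone of the glucocorticoid receptor, went from 20.04, 21.5 and 20.9 FPKM to 55.99, 73.2 and 50.4 (1.46, SE 0.32, adjusted p 0.0258). Per1, a clock gene that glucocorticoids induce, went from 8.19, 5.94 and 5.57 to 21.5, 41.1 and 16.4 FPKM (1.77, SE 0.403, adjusted p 0.0288). Klf9 had 2.72, 2.86 and 2.96 FPKM in control and 8.702, 15.7 and 6.48 in DEIX (adjusted p 0.0791), and Tsc22d3, which encodes GILZ, 76.8, 63.4 and 71.5 and 109.5, 126 and 110.5 (adjusted p 0.0806). DEIX replicate 2 was highest in each of these 4 genes, and replicates 1 and 3 still lay above control in all of them. Leaving out DEIX replicate 2 lowered the list's median to 0.48, and that fit, like those without a control library or without DEIX replicate 1, called 0 members. On the TPM scale 0 members were called, so Fkbp5 and Per1 both lost their calls. On that scale without S100a8, S100a9 and Ngp 1 member was called.

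Some genes that handle carotenoids, retinoids and lipids passed. Scarb1, the receptor through which carotenoids and cholesterol esters enter cells, rose from 31.2, 29.8 and 29.6 FPKM to 51.3, 42.3 and 39.8 (0.54, SE 0.102, adjusted p 0.01395), and was the 1 gene called of 10 tested in its list (median 0.12). This call was lost on both TPM scales and without control replicate 2, control replicate 3 or DEIX replicate 1. The cleavage enzymes Bco1 and Bco2 were under the expression filter. Of 18 genes of lipid and sterol handling 3 were called (16.7%, against 7.24% of all genes), 2 higher and 1 lower, with 0 called in each fit without 1 library other than DEIX replicate 2, where 2 were. Srebf2, the factor that drives cholesterol synthesis and uptake, rose by 0.46. Nr1h3, which encodes the oxysterol receptor LXR alpha and is high in macrophages, went from 2.45, 1.82 and 1.77 to 0.865, 0.736 and 0.907 FPKM (-0.71, adjusted p 0.0366). Lipg, an endothelial lipase, had 0.515, 0.775 and 0.6203 FPKM in control and 60.5, 1.62 and 9.55 in DEIX, higher in each DEIX library but with a wide spread (adjusted p 0.0841).

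Of 31 glutathione and antioxidant genes 4 rose (12.9%, against 7.24% of all genes, 4.52% called higher) and 0 fell (median 0.03, near that of all genes). Ggt1, which starts the breakdown of extracellular glutathione, went from 4.07, 3.28 and 4.37 FPKM to 37.3, 7.99 and 17.9 (1.94, SE 0.46, adjusted p 0.03303). G6pdx, which supplies NADPH, went from 167, 163 and 169 to 428, 239.6 and 313 FPKM (0.93, SE 0.23, adjusted p 0.0344). Gsr and Txnrd1, reductases of glutathione and thioredoxin, rose by 0.52 and 0.42. Ggt1 and G6pdx were highest in DEIX replicate 1, and without any 1 library other than DEIX replicate 2 none of the 4 kept its call. Nqo1, a target of the oxidative stress factor Nrf2, had a change of -0.05 (SE 0.18, adjusted p 0.897).

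Genes of DNA damage and division did not pass. Of 18 p53 target genes 0 were called in limma and 3 had an unadjusted p under 0.05, with a median of 0.05, and Cdkn1a, the p21 inhibitor of the cell cycle, had 7.25, 7.85 and 9.38 FPKM in control and 9.56, 8.11 and 7.81 in DEIX (0.05, SE 0.14, adjusted p 0.856). Of 23 genes of replication and mitosis 0 were called (0 at an unadjusted p under 0.05), with a median of -0.06.

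Cytosolic ribosomal protein genes were lower in 78 of 78, by a median of -0.45. By limma over 12 libraries 0 were called (16 at an unadjusted p under 0.05). With the 6 compared libraries 13 of the 78 were called, in a fit that called 18.7% of all genes, 7.78% lower. Nuclear genes of oxidative phosphorylation were lower in 74 of 80 (median -0.28), with 0 called (3 at an unadjusted p under 0.05). On the TPM scale the ribosomal median was -0.599, against -0.12 for all genes.

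Stem and progenitor genes were near control (median -0.199 over 11), with Myb as the 1 called member (9.09%, against 7.24% of all genes). Myb, the factor that progenitors of several lineages need, fell from 81.1, 77.2 and 78.4 FPKM to 43.5, 46.2 and 47.9 (-0.77, SE 0.12, adjusted p 0.00753), with no overlap and a call in each fit that left out 1 compared library, but not on the TPM scales. Cxcl12, the chemokine by which stroma holds stem cells and B cell precursors in the marrow, fell from 14.3, 11.8 and 9.38 to 2.27, 5.16 and 3.34 FPKM (-1.51, SE 0.34, adjusted p 0.0258), and Sparc, a matrix protein of bone and stroma, changed by -0.88. These were 2 of 11 stromal, bone and endothelial genes (18.2%, against 7.24% of all genes, 2.72% called lower), with a list median of -0.53. Leaving out any library other than DEIX replicate 2 ended both calls. Of 15 eosinophil, basophil and mast cell genes 12 were lower and 3 higher (median -0.23, range -1.06 to 0.726), and 2 were called (13.3%, against 7.24% of all genes). These were the eosinophil granule genes Prg2 and Prg3, Prg2 going from 60.2, 75.4 and 78.5 to 38.6, 40.7 and 38.5 FPKM (-0.84, adjusted p 0.00927) and Prg3 changing by -1.06. Prg2 lost its call without control replicate 2 or 3. Of 15 megakaryocyte and platelet genes 14 were lower (median -0.29) and 2 were called (13.3%). Selp, the member above 0, an adhesion receptor that endothelium also makes, rose by 0.78 and Treml1 changed by -0.69, while Pf4, platelet factor 4, had 71.4, 50.6 and 61.9 FPKM in control and 22.1, 27.6 and 37.4 in DEIX (adjusted p 0.129). Both calls of that list were lost on the TPM scale and without control replicate 2, control replicate 3 or DEIX replicate 1.

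A direct comparison of DEIX with TBI was made over the same 12 libraries. Of the genes tested 46 (0.418%) were called, 33 higher in DEIX (0.3%), and 1849 had an unadjusted p under 0.05. Without DEIX replicate 1, 2 or 3 the count was 3, 91 and 12, and without TBI replicate 1, 2 or 3 it was 290, 1 and 3. Fcmr was at 4.37, 9.23 and 7.28 FPKM in DEIX and 0.315, 0.343 and 0.592 in TBI (log2 change 2.45, SE 0.23, adjusted p 0.00333). Fcer2a was at 1.47, 3.199 and 3.02 and 0.00906, 0.0814 and 0.0793 FPKM (1.72, SE 0.199, adjusted p 0.0108). Both receptors of mature B cells were near 0 in TBI. Pre-B genes were not called: Igll1 was at 1.38, 3.85 and 4.12 FPKM in DEIX and 6.51, 74.9 and 94.2 in TBI, with an adjusted p of 0.166, and Rag1 at 1.35, 1.698 and 2.28 and 0.795, 13.9 and 22.97 (adjusted p 0.351). All TBI values of Igll1 and 2 of 3 of Rag1 lay above the DEIX values, with TBI replicate 1 lowest in both.

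Other genes named by the size of their difference from TBI were Ms4a8a, Il13ra1, Socs3 and Cd34, all higher in DEIX. Ms4a8a was at 18.6, 17.5 and 16.01 FPKM in DEIX and 6.09, 6.39 and 5.198 in TBI (log2 change 1.41, SE 0.18, adjusted p 0.0147), and Il13ra1 at 35.4, 31.5 and 32.2 and 14.3, 9.44 and 7.73 (1.603, adjusted p 0.0303). Socs3 was at 22.3, 14.8 and 12.9 and 5.67, 4.75 and 4.02 FPKM (1.58, adjusted p 0.01799). Cd34, a surface protein of progenitors, was at 13.9, 18.5 and 18.8 FPKM in DEIX and 7.01, 2.92 and 3.44 in TBI (1.79, adjusted p 0.0441). Genes lower in DEIX than in TBI included Cxcl12 at 2.27, 5.16 and 3.34 and 17.3, 22.9 and 8.03 FPKM (-1.83, adjusted p 0.0456), Ctsk, the collagen protease of osteoclasts, at 1.39, 2.31 and 0.609 and 6.52, 6.22 and 9.22 (-1.82, adjusted p 0.0327), and Cd5l (-1.21, adjusted p 0.037997). Pask differed by -0.56. Between DEIX and control neither Cd34 nor Ctsk was called in any fit (lowest limma adjusted p over the alternatives 0.128 and 0.651). For the interferon effectors the median difference from TBI was 0.095 over 31 genes with 0 called in limma (1 at an unadjusted p under 0.05), and for the V(D)J and pre-B list -1.51 over 13 with 0 called (6).

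**Figure D4:**
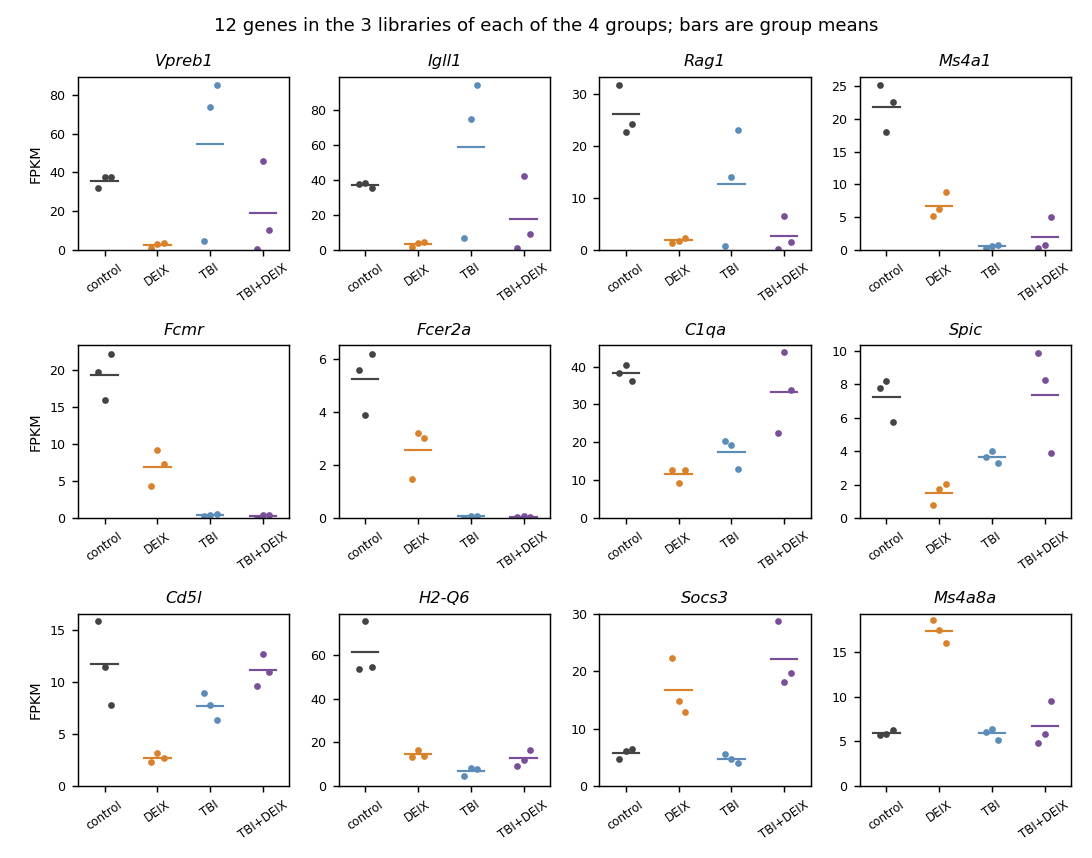
Values of 12 genes in all 4 groups. The vertical axes are FPKM from 0; points are libraries and short bars the means of the 3 libraries in control, DEIX, TBI and TBI+DEIX. Fcmr and Fcer2a are near 0 in both irradiated groups and intermediate in DEIX, Vpreb1 and Igll1 are low in all DEIX libraries and in TBI replicate 1, and C1qa, Spic and Cd5l are lowest in DEIX.

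An interaction was tested, the log2 change from TBI to TBI+DEIX minus that from control to DEIX. TBI mice had olive oil by gavage and control mice no stated vehicle. An unlike DEIX effect with and without irradiation thus cannot be told apart from an effect of vehicle or dosing. Of the genes tested 22 (0.2%) passed, 21 of them positive (0.191%), and 825 had an unadjusted p under 0.05. The count was 331, 13 and 20 without TBI+DEIX replicate 1, 2 or 3, and 13, 4 and 18 without TBI replicate 1, 2 or 3. It was 6, 11 and 5 without control replicate 1, 2 or 3, and 8, 16 and 11 without DEIX replicate 1, 2 or 3. Among resident macrophage genes, C1qa was at 20.3, 19.4 and 12.9 FPKM in TBI and 22.3, 43.9 and 33.7 in TBI+DEIX, against 38.2, 40.4 and 36.1 in control and 12.5, 9.23 and 12.8 in DEIX, an interaction of 2.52 (SE 0.33, adjusted p 0.0142). All DEIX values lay below control, and all TBI+DEIX values above TBI. Spic was at 3.64, 3.99 and 3.304 FPKM in TBI and 9.89, 8.26 and 3.896 in TBI+DEIX (2.51, SE 0.398, adjusted p 0.0338), and Cd5l at 8.997, 7.78 and 6.39 and 9.68, 12.8 and 11.004 (2.201, SE 0.298, adjusted p 0.01599). Of the genes tested in the macrophage list, 5 of 15 passed this test. H2-Q6 was at 4.42, 8.44 and 7.74 FPKM in TBI and 9.25, 12.1 and 16.6 in TBI+DEIX (2.79, SE 0.34, adjusted p 0.0142). Fn1 had the negative interaction, with 124, 106 and 85.4 FPKM in TBI and 40.8, 58.6 and 53.8 in TBI+DEIX (-2.196, SE 0.29, adjusted p 0.0142). DEIX values lay above control, and TBI+DEIX values below TBI.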

How the data were processed

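Messenger RNA of whole mouse bone marrow was sequenced from 12 libraries, 3 in each of 4 groups, with a directional library kit. The deposited table holds FPKM for 21853 genes, made by the authors, and counts were not used here. Per the submitters' processing notes STAR 2.6, Cufflinks 2.2.1 and mm10 were used, with their roles and settings not given in the sources used here. All identifiers matched protein-coding genes of GENCODE vM21, which gave symbols and mm10 positions.

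A gene was tested when 3 or more libraries reached 1 FPKM (10994 genes), on the log2(FPKM + 1) scale, which understates the change of low genes. The fit was made in limma 3.58.1 (R 4.3.3) with 4 group means, a mean-variance trend and 8 residual degrees of freedom per gene, and p-values were adjusted over all tested genes by Benjamini-Hochberg. A gene was called at an adjusted p under 0.05, the limma value meant wherever an adjusted p is given. The procedure was tested on simulated data. Depth cannot be read from FPKM, so relative depth came from the steps between low values.

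Named genes were the 15 largest rises, 15 largest falls and 10 smallest adjusted p among called genes in which the compared libraries were fully separated, with a mean of at least 5 FPKM in the higher group and a gene name, and the 5 largest of each direction in the other comparisons, and any member of the gene lists. Some genes that this rule names are not reported here. Members and lists were chosen with earlier results of these data known. Alternatives were no filter, a mean of at least 5 FPKM, a pseudocount of 0.1, TPM scaling with and without 3 genes with failed estimates, centring, fewer groups in the fit, no trend, a replicate block and each library left out. Promoter sequences came from RefSeq.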

Additional observations from a re-analysis of the deposited data

Results flagged for a closer look

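The interaction term of the limma fit over 12 libraries was called for 10 of the genes described above. It sets TBI+DEIX against TBI, which had olive oil by gavage, and DEIX against control, with no stated vehicle. A difference in the DEIX effect thus cannot be told apart from an effect of vehicle or dosing. The values are the log2 change with DEIX in irradiated mice minus that in unirradiated mice. Among resident macrophage genes the difference was 2.52 for C1qa (adjusted p 0.0142), 2.43 for C1qb, 2.27 for C1qc, 2.51 for Spic and 2.2 for Cd5l. Among genes that interferon induces it was 2.79 for H2-Q6, 1.79 for H2-Q4, 2.21 for Tgtp2 and 1.52 for Socs1. Fn1, the fibronectin gene, had -2.2. TBI+DEIX libraries varied most among themselves, with a within-group SD of 0.418 on the log2 scale against 0.140 in control, and the part of this spread in these values was not tested.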

How the results depend on the processing

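Between DEIX and control 796 genes were called, and under other settings the number called was 282 on the TPM scale, 419 on that scale without S100a8, S100a9 and Ngp, 2057 with only the 6 compared libraries in the fit, 2048 without the TBI+DEIX group (an alternative added after seeing the data) and 146 to 938 with 1 library left out. For DEIX against TBI, with 46 called, it was 107 without a filter, 6 with a mean of at least 5 FPKM, 21 on the TPM scale, 106 with centring, 560 without the TBI+DEIX group and 1 to 290 with 1 library left out. For the interaction, with 22 called, it was 37 without a filter, 7 with a mean of at least 5 FPKM, 11 with a pseudocount of 0.1 and 4 to 331 with 1 library left out. Of 107 called genes named in the text, 74 to 107 were still called under the settings that kept all 6 compared libraries (78 of 81 tested with a mean of at least 5 FPKM), and 34 to 73 with 1 of those libraries left out. In 0 of these fits did a sign change. The cause of these shifts was not tested. Total reads are unknown, and 3 libraries per group limit what could be called.

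The same replicate numbers across groups do not show a shared animal or batch: deviations of control and DEIX libraries with the same number had correlations of -0.29, 0.02 and -0.23. With the replicate number as a block, 640 genes were called between DEIX and control, 14 between DEIX and TBI and 20 for the interaction, and 91 of the 107 genes named above kept their call.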
